A study of Homo sapiens with 6 samples.

Results

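Textbook PPAR target genes of lipid use were followed in T24 cells after knockdown of TRIM28: ANGPTL4, CPT1A, PDK4, PLIN2, ACADVL, FABP4, FABP5, CD36 and HADHA. The members were chosen by name, with earlier results of these data known, and are 9 of the 78932 genes in the count table. T24 cells are an established line of human bladder carcinoma. The polyadenylated RNA was sequenced of 3 T24 cultures transfected with the control siRNA (siNC) and 3 transfected with siRNA against TRIM28 (siTRIM28), labelled as biological replicates of 1 batch. All 6 cultures were grown in the same medium with fetal bovine serum and received the same transfection reagent, and the controls also carried an siRNA duplex. The labels do not say which of the study's TRIM28 siRNAs was used, nor how long after transfection the cells were collected.

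PPARs (PPARA, PPARD and PPARG) are nuclear receptors that bind fatty acids and their derivatives, pair with a retinoid X receptor (RXR), and switch on genes for taking up, storing and burning fat. The genes followed here mark the successive steps: a secreted brake on lipoprotein lipase (ANGPTL4), entry into and carriage through the cell (CD36, FABP4, FABP5), coating of the lipid droplet (PLIN2), entry into mitochondria (CPT1A), the oxidation itself (ACADVL, HADHA), and the kinase that holds glucose carbon back from the mitochondrion when fat is burned (PDK4). In urothelium PPARG is best known as a driver of luminal differentiation.

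After TRIM28 knockdown 4 of the genes rose, ANGPTL4 (3.05-fold), CPT1A (1.50-fold), ACADVL (1.34-fold) and PLIN2 (1.23-fold), and FABP5 fell (0.867-fold). HADHA did not pass the test. The calls on PLIN2 and FABP5 were lost when the most similar libraries were summed. The remaining 3 genes, PDK4, CD36 and FABP4, had no more than 1 read in any library and were not tested. Hence 6 of the 9 members reached the minimum of 10 counts in 3 or more libraries. Of these 6, 5 passed an adjusted p of 0.05, where p comes from the quasi-likelihood test of edgeR and is adjusted by the Benjamini-Hochberg method over all 18474 genes tested. The knockdown changed much of the transcriptome: 41.8% of all genes tested passed the same test, 21.3% as higher and 20.5% as lower in siTRIM28. The 5 called members also had no overlap between the groups in CPM (counts scaled to the library size after TMM), which held for 52.0% of all genes tested. The median log2 fold change of the 6 members was 0.36, against 0.02 over all genes tested. With 6 genes these counts describe the members and say nothing of PPAR targets as a class.

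The knockdown itself was plain in every library. TRIM28 (ENSG00000130726) had 1419, 1393 and 1382 counts in the siNC libraries and 130, 96 and 109 in the siTRIM28 libraries, so that the log2 fold change was −3.54 (SE 0.07, adjusted p = 1.03e-10, edgeR). Total counts were 12989362 to 13942383 in siNC and 11712623 to 14018052 in siTRIM28. The replicates were not equally alike: siNC replicates 1 and 2 differed by a chi-square of 1.08 per degree of freedom and siTRIM28 replicates 2 and 3 by 1.22, where sampling noise gives 1, while the other pairs within a group gave 4.17 to 6.25. Both close pairs still differed by more than sampling noise (chi-square p = 2.84e-14 and 2.67e-96). With this many genes that does not tell separate cultures from repeat libraries of 1 culture. All 6 libraries were kept as labelled, and each call on a member is also given with the close pairs summed. The p-values measure the spread between these libraries, which may in part be technical. The labelled urothelial identity was only partly visible in its markers. KRT8 and KRT18 had 1070 to 1680 counts, but 8 of 13 urothelial and epithelial markers stayed under the count minimum, among them UPK1B, UPK3A, KRT5 and CDH1, each with at most 2 counts in any library. The summed CPM of the 13 markers was 191 to 197 in siNC and 212 to 219 in siTRIM28. KRT8 and KRT18 made up most of this sum, with means of 103 and 85.8 CPM in siNC and 114 and 90.9 CPM in siTRIM28. Under the count minimum and not tested, GATA3, KRT19 and EPCAM had fewer counts in siTRIM28. Their counts over a group were 24, 14 and 16 in siNC and 9, 6 and 8 in siTRIM28. Of the 5 markers tested 4 were called higher, beside 21.3% of all genes tested. Among these 4, TP63 reached the count minimum only through siTRIM28, with 4 to 9 counts in siNC and 10 to 15 in siTRIM28 (adjusted p = 0.04998, edgeR). The count of calls is therefore no measure of the direction of the markers. Whether these marker changes bear on the lipid genes was not tested. In bulk RNA, fewer cells of a kind and less RNA per cell cannot be told apart.

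The promoters of the members that rose were read for the PPAR element, a direct repeat of the nuclear receptor hexamer AGGTCA with a spacer of 1 base. The windows are those of RefSeq on GRCh38.p14, from 250 bases before to 50 after the annotated start, and both strands were searched. Neither the hexamer nor the repeat with up to 2 mismatches in its 12 fixed positions was found in any window of ANGPTL4, CPT1A, ACADVL, PLIN2, HADHA or PDK4. Among all 35116 windows 13.8% held the hexamer and 2.97% the repeat, and elements elsewhere in these genes were not searched, nor were the windows of FABP4 and FABP5. The absence of these letters says nothing of whether a PPAR acts on the gene. The windows of the 4 genes that rose are shown because they are the sequences just around the starts of these transcripts, the ACADVL one being the second of a pair of starts and holding position 7219836, where the overlap with DLG4, a gene of the opposite strand, begins at the annotated 5′ start of DLG4. They have no capitals, since nothing matched.
ANGPTL4, chr19:8363905-8364204, plus strand: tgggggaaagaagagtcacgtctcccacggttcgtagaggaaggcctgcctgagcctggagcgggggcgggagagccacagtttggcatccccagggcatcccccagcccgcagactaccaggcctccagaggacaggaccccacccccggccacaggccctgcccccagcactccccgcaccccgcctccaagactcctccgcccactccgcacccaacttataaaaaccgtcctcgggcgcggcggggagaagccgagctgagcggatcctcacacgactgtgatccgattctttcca
CPT1A, chr11:68844228-68844527, minus strand: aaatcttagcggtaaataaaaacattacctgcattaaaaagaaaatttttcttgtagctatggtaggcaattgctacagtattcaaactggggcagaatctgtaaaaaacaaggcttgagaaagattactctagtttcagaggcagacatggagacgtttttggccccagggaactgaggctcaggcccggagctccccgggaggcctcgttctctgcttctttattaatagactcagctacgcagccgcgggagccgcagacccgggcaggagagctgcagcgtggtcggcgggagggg
ACADVL, chr17:7219688-7219987, plus strand: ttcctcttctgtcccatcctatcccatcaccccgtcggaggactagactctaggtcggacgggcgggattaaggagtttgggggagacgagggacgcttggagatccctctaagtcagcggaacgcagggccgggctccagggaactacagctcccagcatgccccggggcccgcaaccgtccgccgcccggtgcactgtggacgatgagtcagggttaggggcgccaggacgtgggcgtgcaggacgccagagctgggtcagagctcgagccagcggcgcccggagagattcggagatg
PLIN2, chr9:19127443-19127742, minus strand: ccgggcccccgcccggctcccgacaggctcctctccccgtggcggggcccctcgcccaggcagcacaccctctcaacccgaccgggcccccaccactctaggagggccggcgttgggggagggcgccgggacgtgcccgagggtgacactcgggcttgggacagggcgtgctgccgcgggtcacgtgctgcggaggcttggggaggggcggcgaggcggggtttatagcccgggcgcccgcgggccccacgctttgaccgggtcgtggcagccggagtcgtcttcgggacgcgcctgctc

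ANGPTL4 (ENSG00000167772, GRCh38 chr19:8363289-8374370, plus strand) encodes angiopoietin-like 4, a secreted protein that inhibits lipoprotein lipase and so limits the release of fatty acids from lipoproteins. In siNC replicates 1, 2 and 3 it stood at 5.67, 5.19 and 5.32 CPM (79, 72 and 68 counts). In siTRIM28 replicates 1, 2 and 3 it stood at 16.9, 16.4 and 16.0 CPM (238, 195 and 190 counts). All 3 knockdown libraries thus lay far above all 3 controls, and the gap between the groups was many times the spread within either. The means were 5.39 ± 0.25 and 16.5 ± 0.48 CPM (SD, n = 3 each) and the log2 fold change was 1.61 (SE 0.09, 95% interval 1.41 to 1.81, adjusted p = 1.24e-07, edgeR). Only 0.817% of the genes tested had a larger log2 fold change. An exact two-sided permutation test gave p = 0.1, which is the smallest p that 3 libraries against 3 can give and which was also obtained for CPT1A, ACADVL, PLIN2 and FABP5. With the close pairs summed the log2 fold change was 1.62 (adjusted p = 8.96e-05, edgeR). Over 6067 bases ANGPTL4 overlaps RAB11B-AS1 on the opposite strand, which had 347 to 540 counts and a log2 fold change of −0.11 (edgeR, adjusted p = 0.389). The library kit was stranded, but whether the counting used strand is not given in the sources used here.

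**Figure D1:**
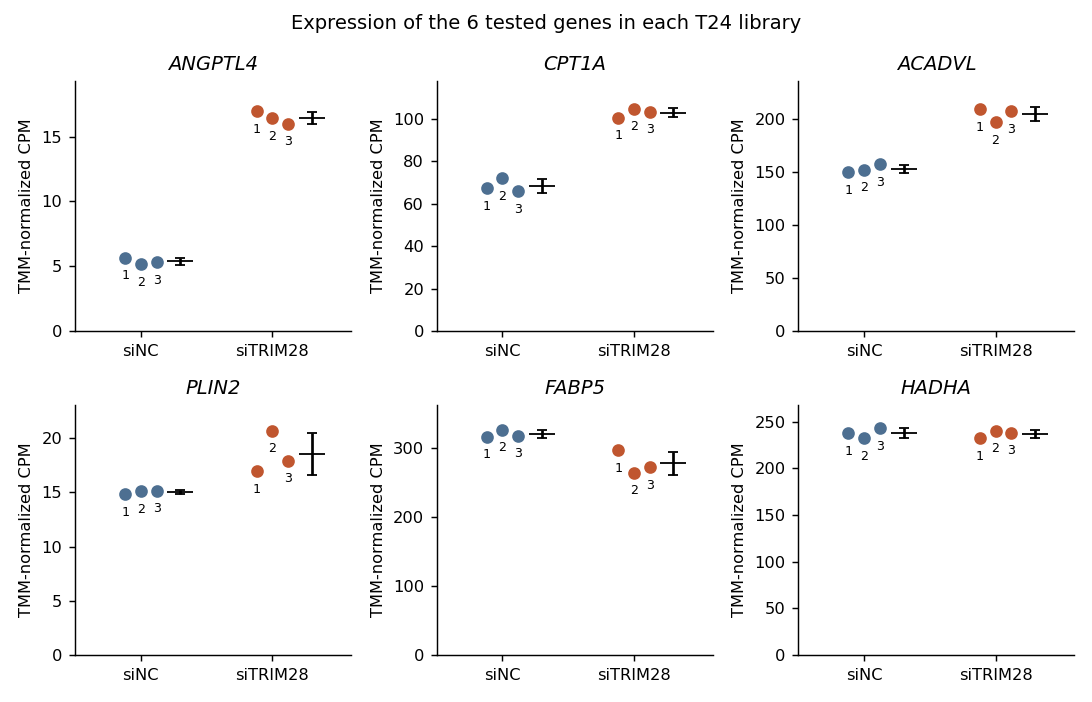
TMM-normalized CPM (y axes, each from 0) of the 6 tested genes in the 3 siNC and 3 siTRIM28 libraries (points, numbered by replicate), with the mean and SD of each group beside them as a bar. ANGPTL4, CPT1A, ACADVL and PLIN2 lay higher and FABP5 lower in every siTRIM28 library than in any siNC library, whereas the HADHA points of the groups overlapped.

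CPT1A (ENSG00000110090, chr11:68754620-68844410, minus strand) encodes carnitine palmitoyltransferase 1A, which loads long-chain fatty acids onto carnitine for import into mitochondria and is the rate-limiting step of their oxidation. Its level was 67.2, 72.0 and 65.9 CPM in siNC replicates 1, 2 and 3 and 101, 105 and 103 CPM in siTRIM28 replicates 1, 2 and 3. The groups were well apart, and the knockdown libraries differed less among themselves than the controls did. The means of 68.4 ± 3.23 and 103 ± 2.14 CPM (SD, n = 3 each) gave a log2 fold change of 0.59 (SE 0.05, 95% interval 0.48 to 0.70, adjusted p = 3.62e-06, edgeR), and 0.59 again with the close pairs summed (adjusted p = 8.51e-04). No other gene of the count table overlaps CPT1A. CPT1A was the main isozyme of its family in these cells. Of the summed RPKM (reads per kilobase of gene, scaled to library size) of CPT1A, CPT1B and CPT1C, it held 85.0% ± 1.56 in siNC and 88.1% ± 0.89 in siTRIM28 (SD, n = 3). CPT1B and CPT1C, the isozymes of muscle and brain, had log2 fold changes of 0.18 and 0.28 that did not pass the test (adjusted p = 0.385 and 0.329, edgeR).

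SLC25A20, the carnitine-acylcarnitine carrier that brings the product of CPT1A through the inner membrane, rose as well. It went from 2.87, 2.52 and 3.44 CPM in siNC to 6.12, 4.88 and 5.22 CPM in siTRIM28, without overlap, a log2 fold change of 0.89 (SE 0.17, adjusted p = 0.00148, edgeR). CPT2, which takes the carnitine off again on the inside, had 77 to 79 counts in siNC and 55 to 79 in siTRIM28 and did not pass the test (log2 fold change −0.14, adjusted p = 0.576, edgeR).

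ACADVL (ENSG00000072778, chr17:7217125-7225266, plus strand) encodes very long-chain acyl-CoA dehydrogenase, the first enzyme of mitochondrial beta-oxidation for long chains. It stood at 150, 152 and 157 CPM in siNC replicates 1, 2 and 3 and at 209, 196 and 207 CPM in siTRIM28 replicates 1, 2 and 3. The lowest knockdown library was thus clearly above the highest control. From 153 ± 3.80 to 204 ± 6.74 CPM (SD, n = 3 each), the log2 fold change was 0.42 (SE 0.04, 95% interval 0.32 to 0.51, adjusted p = 1.39e-05, edgeR), and 0.41 with the close pairs summed (adjusted p = 0.00212). Its first 2712 annotated bases overlap DLG4 on the opposite strand. DLG4 had 684 to 950 counts and a log2 fold change of 0.28 (edgeR, adjusted p = 0.00270). With the DLG4 counts added to those of ACADVL, an alternative chosen after seeing the data, the log2 fold change was 0.38 (adjusted p = 2.22e-05).

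HADHA (ENSG00000084754, chr2:26190635-26244604, minus strand) encodes the alpha subunit of the mitochondrial trifunctional protein, which carries out the next steps on long chains together with its beta subunit HADHB. HADHA stood at 238, 232 and 243 CPM in siNC and at 232, 240 and 238 CPM in siTRIM28, so the groups overlapped fully. The log2 fold change was 0.00 with a 95% interval of −0.09 to 0.08 (adjusted p = 0.940, edgeR), and upper-quartile and total-count scaling gave it the opposite sign without a call. HADHB stood at 38.3, 35.2 and 35.6 CPM in siNC and 37.7, 34.3 and 38.7 CPM in siTRIM28, with a log2 fold change of 0.02 (95% interval −0.13 to 0.17, adjusted p = 0.828, edgeR). Neither subunit therefore moved beyond the spread of its replicates, and changes of the size seen for CPT1A or ACADVL lay outside both intervals. The subunits are made at matched amounts in the complex, yet per kilobase HADHA was 6.47 ± 0.32 times HADHB in siNC and 6.36 ± 0.49 times in siTRIM28 (SD, n = 3). The log2 ratio of HADHA to HADHB differed by −0.02 between the groups (exact two-sided permutation p = 0.8, n = 3 each). The HADHA pseudogenes HADHAP1 and HADHAP2 had at most 11 counts in any library.

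HADHA and HADHB, the pair that did not pass the test, are transcribed away from each other from 1 stretch of chromosome 2, and their annotated spans overlap by 1435 bases on opposite strands. The 300-base windows of the pair share 194 bases (chr2:26244689-26244882), which are in capitals in the HADHA window.
HADHA, chr2:26244583-26244882, minus strand: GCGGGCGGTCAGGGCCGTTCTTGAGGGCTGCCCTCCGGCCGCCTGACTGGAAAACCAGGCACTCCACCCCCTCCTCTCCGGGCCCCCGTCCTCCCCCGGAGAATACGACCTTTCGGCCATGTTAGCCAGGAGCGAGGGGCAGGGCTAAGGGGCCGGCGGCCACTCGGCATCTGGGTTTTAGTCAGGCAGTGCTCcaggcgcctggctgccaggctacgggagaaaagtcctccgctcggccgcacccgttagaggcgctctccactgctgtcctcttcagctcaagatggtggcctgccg

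Among the other 17 tested enzymes and carriers of mitochondrial beta-oxidation, of 19 listed, 4 rose and 3 fell, and the median log2 fold change was 0.03. Beside SLC25A20, ECI2, an enoyl-CoA isomerase for unsaturated chains, rose by a log2 fold change of 0.32 (SE 0.07, adjusted p = 0.00308, edgeR). The largest falls were those of ECHS1, the short-chain enoyl-CoA hydratase (log2 fold change −0.63, adjusted p = 1.22e-05), and HADH, the medium- and short-chain hydroxyacyl-CoA dehydrogenase (−0.55, adjusted p = 8.58e-04, both edgeR). ECHS1 went from 43.7, 45.0 and 43.5 CPM to 30.3, 27.8 and 27.1 CPM and HADH from 15.9, 14.3 and 15.2 CPM to 11.7, 9.93 and 9.17 CPM, in neither case with overlap. The 7 called of 17 tested were 41.2%, close to the 41.8% of all genes tested.

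Peroxisomes shorten very long and branched chains with their own enzymes, several of them textbook PPARA targets. Of 16 tested genes of this route (17 listed) 1 rose and 3 fell, or 25% called beside 41.8% of all genes tested. EHHADH, the peroxisomal bifunctional enzyme, fell from 2.30, 1.58 and 2.50 CPM to 0.783, 1.18 and 1.01 CPM (log2 fold change −1.11, SE 0.28, adjusted p = 0.00701, edgeR), with only 11 to 32 counts behind each value. AMACR, the racemase for branched chains, fell by 0.75 on the log2 scale (adjusted p = 9.17e-05, edgeR) and SCP2, the peroxisomal thiolase and sterol carrier, by 0.31 (adjusted p = 0.00243, edgeR), whereas the thioesterase ACOT8 rose (log2 fold change 0.38, adjusted p = 0.00149, edgeR).

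PLIN2 (ENSG00000147872, chr9:19108375-19149278, minus strand) encodes perilipin 2, which coats lipid droplets in most cells. Its level was 14.9, 15.1 and 15.2 CPM in siNC and 16.9, 20.7 and 17.9 CPM in siTRIM28. The controls were almost identical, and the knockdown libraries were all higher but spread widely, replicate 2 standing above the others. The means were 15.1 ± 0.17 and 18.5 ± 1.95 CPM (SD, n = 3 each) and the log2 fold change was 0.30 (SE 0.08, 95% interval 0.11 to 0.48, adjusted p = 0.0137, edgeR). This call was fragile. DESeq2 gave an adjusted p of 0.0752, the fit with close pairs summed 0.0546, and the fits without siNC replicate 1 and without siTRIM28 replicate 2 gave 0.0631 and 0.0634, with log2 fold changes of 0.20 to 0.36 over the fits that left out 1 library. PLIN3, the other perilipin of these cells, fell. It stood at 108, 105 and 109 CPM in siNC and 69.3, 69.2 and 63.6 CPM in siTRIM28 (log2 fold change −0.67, SE 0.05, adjusted p = 1.41e-06, edgeR). Per kilobase PLIN2 made up 7.12% ± 0.17 of the summed RPKM of PLIN1 to PLIN5 in siNC and 13% ± 1.16 in siTRIM28, and PLIN3 92.7% ± 0.27 and 86.8% ± 1.21 (SD, n = 3). The sum itself went from 41.9 ± 0.71 to 28.5 ± 1.16 RPKM. PLIN1, PLIN4 and PLIN5 had at most 3 counts in any library.

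Around the droplet coats, 2 of 11 tested genes of droplets and lipolysis (16 listed, PLIN3 among them) rose and 2 fell. The called share was 36.4%, beside 41.8% of all genes tested. HILPDA, a droplet protein that inhibits the lipase PNPLA2, rose from 6.53, 5.91 and 5.78 CPM to 11.5, 13 and 10.6 CPM (log2 fold change 0.95, SE 0.12, adjusted p = 5.02e-05, edgeR). G0S2, another inhibitor of the same lipase and a PPAR target in fat and liver, fell from 31.9, 29.1 and 33.0 CPM to 18.8, 18.5 and 20 CPM (log2 fold change −0.71, SE 0.07, adjusted p = 1.18e-05, edgeR). LIPE, hormone-sensitive lipase, rose by a log2 fold change of 0.68 (edgeR, adjusted p = 0.00767) from a low level of 3.87 ± 0.31 CPM (SD, n = 3).

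FABP5 (ENSG00000164687, chr8:81280536-81284777, plus strand) encodes a fatty acid-binding protein that carries its ligands to PPARD in the nucleus. It had the highest level of all the members, also per kilobase, with 317, 327 and 318 CPM in siNC and 297, 264 and 272 CPM in siTRIM28. The groups did not overlap, but siTRIM28 replicate 1 lay about midway between the controls and the other knockdown libraries. The means of 320 ± 5.42 and 278 ± 17.0 CPM (SD, n = 3 each) gave a log2 fold change of −0.21 (SE 0.05, 95% interval −0.31 to −0.10, adjusted p = 0.00443, edgeR). With the close pairs summed the change was −0.18 and the call was lost (adjusted p = 0.0752, edgeR). Near-identical copies make this count uncertain. The 17 annotated FABP5 pseudogenes together held 11.5% to 13% as many counts as FABP5 in siNC, 16.7% in siTRIM28 replicate 1, and 13.3% and 13.7% in replicates 2 and 3, most of them on FABP5P7. Adding them to FABP5 gave a log2 fold change of −0.17 (edgeR, adjusted p = 0.0188). FABP5 also overlaps LNMICC on the opposite strand over 911 bases, and LNMICC had 1998 to 2967 counts and a log2 fold change of −0.23 (edgeR, adjusted p = 0.00197). How reads were shared between these genes was not tested.

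The target genes best known from adipocytes and macrophages were not detectably expressed. FABP4, the fatty acid-binding protein of fat cells, had 0 counts in all 6 libraries, and CD36, the fatty acid translocase of fat, muscle, endothelium and macrophages, had 0 counts in siNC and 0, 0 and 1 in siTRIM28. A count of 0 over the 3 libraries of a group allows up to 3 counts, as far as counting error goes. That is 0.0734 CPM in siNC and 0.0799 CPM in siTRIM28. The siTRIM28 limit holds for FABP4 but not for CD36, which had 1 count there. Any change in these genes was thus below what this depth can show. CD36 has 6 promoter windows, of which 1 held the PPAR repeat with 2 mismatches on its minus strand at chr7:80638369-80638381. The cell types that usually express them left few reads too: 5 of 6 adipocyte markers (all but LIPE), 5 of 5 endothelial markers and 4 of 5 macrophage markers stayed under the count minimum, and CD68, the macrophage marker above it (4203 to 4824 counts), is also a lysosomal protein of many cells. FABP5 held 98.4% ± 0.49 and 98.0% ± 0.13 of the summed RPKM of FABP3 to FABP7 in siNC and siTRIM28 (SD, n = 3). FABP3, the heart form, had 11 to 17 counts in siNC and 6 to 9 in siTRIM28 and did not pass the test (log2 fold change −0.82, adjusted p = 0.0751, edgeR). Of 10 tested genes of fatty acid release, uptake and activation (19 listed), edgeR, DESeq2 and limma-voom each called 0, and 4 had an unadjusted edgeR p under 0.05.

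PDK4 (ENSG00000004799, chr7:95583499-95596516, minus strand), the pyruvate dehydrogenase kinase that fasting and PPAR agonists raise in muscle and liver, had 0 counts in each siNC library and 1, 0 and 1 in the siTRIM28 libraries. It was below the level at which a difference could be seen, and the other kinases of the family carried the transcript pool. PDK1, the isozyme best known for its rise in low oxygen, went from 21.8, 24.1 and 22.4 CPM to 31.5, 36.2 and 34.1 CPM (log2 fold change 0.57, SE 0.07, adjusted p = 7.26e-05, edgeR). PDK3 went from 15.5, 16.3 and 16.2 CPM to 9.18, 11 and 11.7 CPM (−0.59, SE 0.09, adjusted p = 3.53e-04, edgeR), and PDK2 did not pass the test (−0.03, 95% interval −0.34 to 0.27, adjusted p = 0.875, edgeR). Per kilobase the share of PDK1 was 36.1% ± 2.00 in siNC and 49.1% ± 3.25 in siTRIM28, that of PDK2 42.3% ± 2.71 and 37.6% ± 2.99, and that of PDK3 21.6% ± 0.86 and 13% ± 0.23 (SD, n = 3), while the sum of the 4 kinases was 4.22 ± 0.24 and 4.71 ± 0.53 RPKM. By mean share PDK2 was thus ahead of PDK1 in siNC and behind it in siTRIM28, while the sums differed by less than the larger SD. The order in siNC depends on the deposited gene lengths, 14845 bases for PDK1 and 5471 for PDK2. By mean CPM, without length, PDK1 stood above PDK2 in siNC (22.8 and 9.86) and in siTRIM28 (33.9 and 9.68). Of the 10 genes of the pyruvate dehydrogenase complex and its regulators, all tested, 2 rose and 3 fell. The called share was 50%, beside 41.8% of all genes tested. DLAT, its E2 core subunit, went from 39.3, 38.2 and 38.9 CPM to 22.6, 21.0 and 24.2 CPM (log2 fold change −0.78, adjusted p = 3.31e-06, edgeR), and the phosphatase PDP1 rose (0.30, adjusted p = 0.00256, edgeR).

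**Figure D2:**
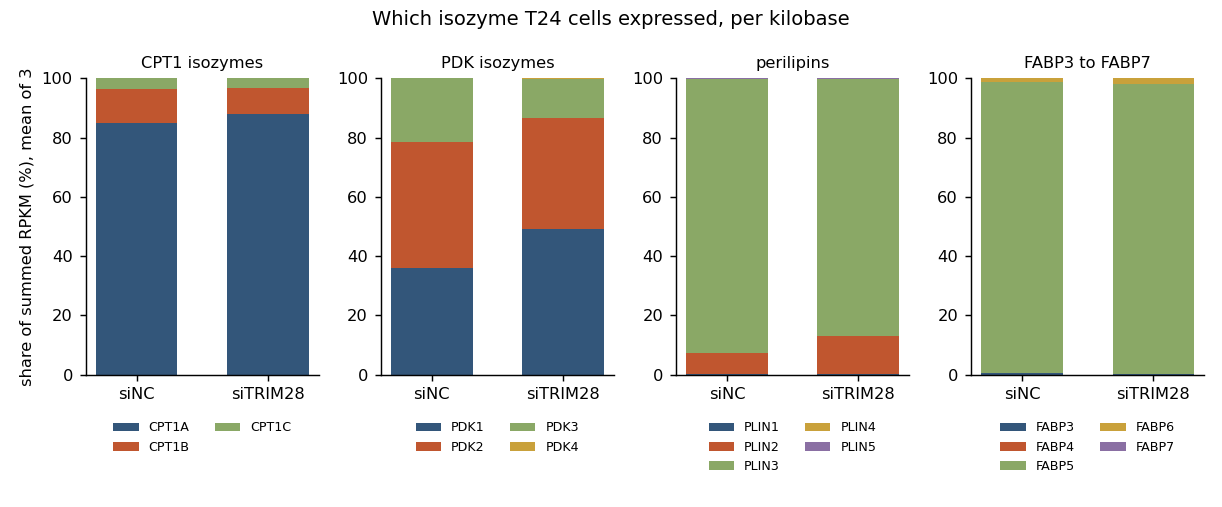
Share of each isozyme in the summed RPKM of its family (y axis, percent, mean of 3 libraries) in siNC and siTRIM28, for the CPT1 isozymes, the PDK isozymes, the perilipins and FABP3 to FABP7. CPT1A and FABP5 made up most of their families in both groups, and PLIN2 went from 7.12% to 13% beside PLIN3. PDK4 and FABP4 were at or near 0. On this per-kilobase scale PDK1 was in first place after knockdown, while by CPM it stood above PDK2 in both groups.

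The receptors themselves gave a mixed picture. PPARG had 93, 90 and 105 counts in siNC and 90, 98 and 93 in siTRIM28, overlapping groups with a log2 fold change of 0.07 (95% interval −0.24 to 0.38, adjusted p = 0.728, edgeR). PPARA had a log2 fold change of 0.16 (adjusted p = 0.173), and PPARD, the most abundant per kilobase of the PPARs (6.05 ± 0.24 RPKM in siNC, against 0.857 ± 0.027 for PPARA and 0.590 ± 0.074 for PPARG, SD, n = 3), fell by 0.21 on the log2 scale (adjusted p = 0.0197, edgeR). RXRA, one of the RXRs with which PPARs pair to bind DNA, changed most among the PPARs and RXRs tested. It stood at 14.9, 15.0 and 15.2 CPM in siNC and at 7.26, 6.23 and 6.14 CPM in siTRIM28, a log2 fold change of −1.19 (SE 0.09, 95% interval −1.40 to −0.98, adjusted p = 1.76e-06, edgeR), and only 1.33% of the genes tested had a lower one. RXRB fell too, from 13.9, 12.6 and 13.4 CPM to 9.18, 8.75 and 9.68 CPM (−0.53, SE 0.09, adjusted p = 5.22e-04, edgeR), while RXRG had at most 1 count. Among the coregulators NCOA2, a coactivator of nuclear receptors, fell (−0.90, SE 0.08, adjusted p = 2.70e-06, edgeR) and PPARGC1B, a coactivator of oxidative metabolism, rose (0.44, SE 0.11, adjusted p = 0.00777, edgeR). In all, 3 of the 14 tested genes of this list (16 listed) rose and 5 fell, or 57.1% called beside 41.8% of all genes tested. Thus ANGPTL4, CPT1A and ACADVL were higher in the same libraries in which RXRA and RXRB were lower, and RNA counts do not show the amount or activity of any receptor protein.

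**Figure D3:**
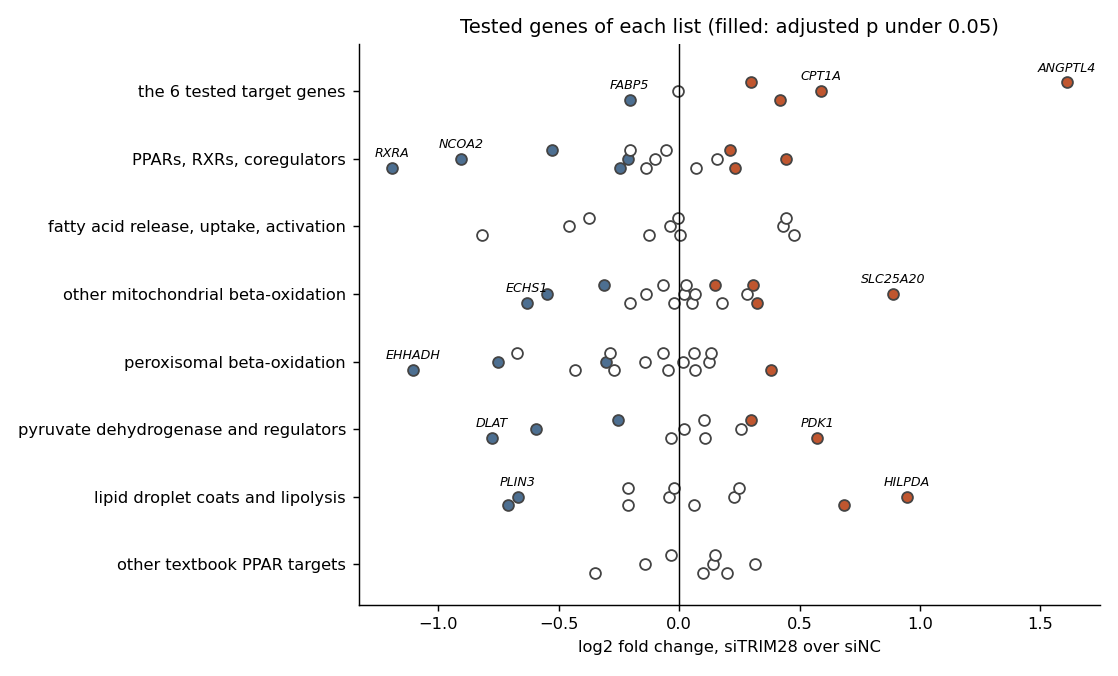
Log2 fold change of siTRIM28 over siNC (x axis) for each tested gene of the 6 members and of 7 related lists, with filled points for an adjusted p under 0.05 (orange higher, blue lower) and open points for the rest. ANGPTL4 at 1.61 stood apart from every other gene drawn, RXRA at −1.19 was the lowest, and the lists spread to both sides of 0.

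Beyond the members, the other PPAR targets of the textbooks were mostly under the count minimum, and those tested did not pass. Of 22 listed, among them CYP4A11, FGF21, ADIPOQ and UCP1, 14 were under the count minimum, and of the 8 tested edgeR, DESeq2 and limma-voom each called 0, with 1 at an unadjusted edgeR p under 0.05. Of the 7 other angiopoietin-like genes only ANGPTL6 was tested, at 20 to 30 counts in siNC and 21 to 43 in siTRIM28, and it did not pass the test (log2 fold change 0.50, adjusted p = 0.139, edgeR). Over the 8 related lists together, 28 of 87 tested genes were called, 12 higher and 16 lower, or 32.2% against the 41.8% of all genes tested. The members with their 4 rises therefore lay among pathway genes that moved in both directions.

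By level per kilobase in siNC the members ranked FABP5 (167 ± 3.24 RPKM), HADHA (54.5 ± 0.97), ACADVL (31.5 ± 0.54), CPT1A (10.3 ± 0.53), PLIN2 (2.98 ± 0.021) and ANGPTL4 (2.16 ± 0.11; SD, n = 3 each), and the ranges of neighbours did not overlap. In siTRIM28 ANGPTL4 reached 6.69 ± 0.16 RPKM and passed PLIN2 at 3.72 ± 0.39, the one change of order on this scale. This change depends on the deposited gene lengths, 2475 bases for ANGPTL4 and 5011 for PLIN2. By mean CPM, without length, ANGPTL4 stayed under PLIN2 in siNC (5.39 and 15.1) and in siTRIM28 (16.5 and 18.5). In siNC ANGPTL4 lay above 44.5% of the genes tested, and even after its rise it stayed under CPT1A at 15.8 ± 0.37 RPKM.

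**Figure D4:**
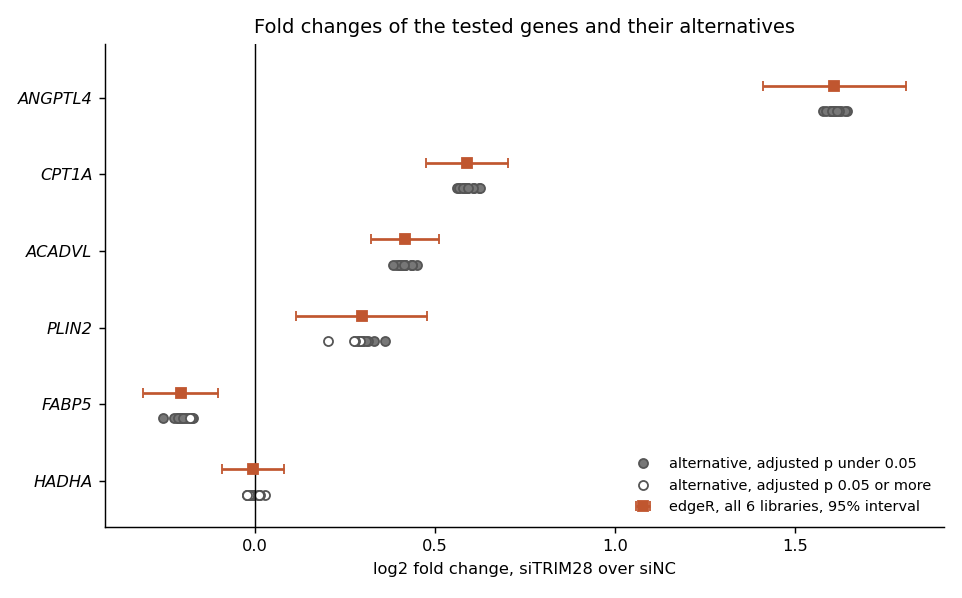
Log2 fold change of siTRIM28 over siNC (x axis) for the 6 tested members, as orange squares with 95% intervals from edgeR on all 6 libraries and, beneath, the values under each alternative as circles, filled where the adjusted p was under 0.05. ANGPTL4, CPT1A and ACADVL kept their sign and their call throughout, PLIN2 lost its call in 4 alternatives and FABP5 in 1, and HADHA stayed around 0.

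An siRNA can lower transcripts whose 3′ UTR pairs with its seed, bases 2 to 8 of the guide strand, so the longest 3′ UTR of each member in GENCODE v29 was searched for the seed matches of the study's TRIM28 siRNAs. The match of siTRIM28-1 (ATGTGCA) was in 15.1% and that of siTRIM28-2 (TCCTGTC) in 17.9% of 12146 tested genes with such a 3′ UTR. None of the 6 tested members held the first, and CPT1A alone held the second, once. That site is shown, with the seed match in capitals, because no other tested member held a match.
CPT1A, chr11:68756008-68756028, minus strand: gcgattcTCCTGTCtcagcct
FABP5, the member that fell, held neither match in its 3′ UTR of 210 bases, nor did RXRA in 405 bases. Of the other genes described as lower, RXRB, EHHADH and DLAT each held 1 match of siTRIM28-2, and NCOA2 and HADH each 1 of siTRIM28-1. Genes described as higher held matches too: PPARGC1B had 3 of siTRIM28-1, and PDK1 had 1 of siTRIM28-1 and 2 of siTRIM28-2. Their 3′ UTRs, of 7464 and 12700 bases, were longer than those of the lower genes with a match (818 to 3870 bases). The seed of siNC, the duplex carried by the control cultures, was not searched. Whether these matches bear on any change was not tested.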

How the data were processed

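Poly(A) RNA of 6 T24 cultures was sequenced from stranded libraries. The authors deposited raw read counts per gene on GRCh38, one column per culture, and gene lengths. The submitters' processing notes name fastp 0.23.1, STAR 2.7.6a and featureCounts, without the order or the strand setting. A second deposited table, with RPKM values of the genes the authors selected as changed, was not used. The test was the quasi-likelihood F test of edgeR 4.0.16 in R 4.3.3, with TMM scaling and the condition alone in the model, over genes reaching 10 counts in 3 or more of the 6 libraries, with Benjamini-Hochberg adjustment and a threshold of 0.05. An SE is the log2 fold change over the square root of the F statistic. CPM values use TMM library sizes, and RPKM values are counts per kilobase of the deposited gene length, scaled to the total counts. A count of 0 was taken to allow 3 counts. Intervals are at 95% and cover counting and replicate error only. All members, the PPARs and TRIM28 were named, with their isozymes and, in each other list, up to 4 called genes of the largest change among those averaging 20 counts or more. Other genes named as not expressed, and CPT2, RXRG, CD68, DLG4, RAB11B-AS1 and LNMICC, were added after their values were seen. The members and lists were chosen with earlier results of these data known. Alternatives were scaling by RLE, by the upper quartile or by total counts, DESeq2 1.42.0, limma-voom (limma 3.58.1), no filter, 10 counts in every library, a replicate block, each library left out, an adjusted p under 0.01, and, added after seeing the data, close pairs summed, FABP5 with its pseudogenes and ACADVL with DLG4. The test was tried on simulated data first. Promoters came from RefSeq (GRCh38.p14) and 3′ UTRs from GENCODE v29, both of the build of the counts. Figures were drawn with matplotlib 3.10.9 in Python 3.11.15.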

Additional observations from a re-analysis of the deposited data

How the results depend on the processing

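The log2 fold changes of TRIM28 (−3.58 to −3.49), ANGPTL4 (1.58 to 1.64), CPT1A (0.56 to 0.63) and ACADVL (0.38 to 0.45) kept their direction and their call under every alternative run for them, and HADHA (−0.02 to 0.03) was called under none. PLIN2 lost its call with DESeq2 (0.29) and with the close pairs summed (0.28), and leaving out each library in turn gave 0.20 to 0.36, with the call lost without siNC replicate 1 and without siTRIM28 replicate 2. The main adjusted p of PLIN2, 0.0137 (edgeR), was also above the stricter threshold of 0.01. FABP5 lost its call with the close pairs summed (−0.18) and kept it when each library was left out (−0.26 to −0.18). The count of called members was 3 with the close pairs summed and 4 to 5 otherwise; the cause of these losses was not tested beyond the fewer samples of the summed fit. Changed genes numbered 5393 to 8130 and called genes of the 8 lists 24 to 30. The lists with no call, fatty acid uptake and other textbook targets, had at most 1 under any alternative. Upper-quartile scaling moved the median log2 fold change of all genes from 0.02 to 0.05 and the higher share of called genes from 51.1% to 56.6%. The replicate numbers did not pair the samples (correlations of same-numbered deviations 0.05, −0.01 and 0.04), and with the replicate block 7910 genes and 5 members were called. PDK4, CD36 and FABP4 had too few counts for the main fit, and no value is given for them under any alternative. Leaving out each library in turn, the HADHA to HADHB log2 ratio differed by −0.09 to 0.01. At this depth the low genes, such as EHHADH, rest on few reads.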

Other observations

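Some genes that most cells use for fatty acid metabolism were listed at or near 0 in every library, whatever the group. ETFA, one subunit of the electron carrier that accepts electrons from ACADVL and the other acyl-CoA dehydrogenases, had 0 or 1 count, while its partner ETFB had 802 to 1130 counts. SCAPER and FBXO22, genes of the same region of chromosome 15, had 563 to 690 and 102 to 177 counts. ACSL4, an acyl-CoA synthetase for polyunsaturated fatty acids, also had 0 or 1 count, and NXT2, TMEM164 and AMMECR1, which lie near it on the X chromosome, had 0 in all 6 libraries. The related synthetases ACSL3 and ACSL1 had 724 to 959 and 237 to 325 counts. These genes were named after their values were seen, and the counts alone do not say how they came about.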
